A study of Mus musculus with 9 samples.

Results

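A group of 10 genes that encode titin-bound and Z-disc proteins with a part in sensing load was followed in mouse gastrocnemius, a fast calf muscle, through disuse and the return of load. The genes were taken by name: the ankyrin repeat genes Ankrd1, Ankrd2 and Ankrd23, the LIM protein gene Csrp3, the Xin genes Xirp1 and Xirp2, the filamin gene Flnc, and Nrap, Ldb3 and Smpx. All 10 were found among the 55487 genes of the count table, and all 10 passed the filter on low counts, as did 14851 genes in all. The lowest count of any of them in any library was 64. Of the 9 libraries, 4 came from Control mice in conventional cages, 2 from Unloading mice, whose hindlimbs had been unloaded for 10 days, and 3 from mice that were unloaded and then returned to normal cage activity for 1 day (Reloading). Hindlimb unloading by tail suspension is a standard model of muscle disuse in rodents. Per the labels all mice were male wild-type C57BL/6 (C57BL/6J in the study's text), and polyadenylated RNA of the muscle was sequenced. Female mice are named for this procedure in the study's methods. The age of the mice is not given in the sources used here. Each library is labelled as a separate sample, and p-values measure the spread between these samples.

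The Z-disc is the plate at which the actin filaments of neighbouring sarcomeres are cross-linked by alpha-actinin and at which the giant spring protein titin is anchored. Proteins that sit on titin's elastic part or at the Z-disc, among them the muscle ankyrin repeat proteins and the muscle LIM protein encoded by Csrp3, can also move to the nucleus, and they are known for rising when muscle is stretched, overloaded or injured. Filamin C and the Xin proteins bind actin and gather where myofibrils are damaged and rebuilt.

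The libraries held 9252443 to 19612101 read pairs assigned to genes, and 1 read pair was worth 0.0546 to 0.113 CPM, the count of a gene scaled to a common library total. Markers of skeletal muscle fibres were abundant in every library, with summed levels of 191957 to 209258 CPM in Control, 201368 to 207596 in Unloading and 138606 to 152020 in Reloading. Several of the 10 genes are also heart genes, and the 5 heart markers summed to 2.83 to 4.96 CPM in Control, 3.67 to 3.82 in Unloading and 4.997 to 5.50 in Reloading. Nppa and Myl7 had at most 1 count in any library, Tnni3 at most 8, Ryr2 8 to 28 and Myh6 19 to 54, and of the 2 that passed the filter Myh6 was called higher in Reloading than in Unloading (log2 fold change 0.68, adjusted p 0.0185) and Ryr2 was not called. The part of heart transcripts in the results was not tested. Control 2 and Reloading 1 held skin transcripts, with 1086 and 502 counts of the keratin gene Krt2, of which no other library had more than 3. Without these 2 libraries the counts of the 10 genes called in Reloading against Unloading and in Reloading against Control stayed at 8 higher with 1 and 2 lower.

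In Reloading the 10 genes together took 2.33% to 2.71% of all counts, against 0.680% to 0.763% in the 6 Control and Unloading libraries. The rise came from a subset of the genes. Levels are given in FPKM, the CPM of a gene per kilobase of its exons, so that genes of different length can be compared. The length is that of all annotated exons of a gene, and comparisons of levels between genes depend on it. Library sizes were adjusted by the TMM method, which assumes that most genes do not differ. In Control the order by mean level was Nrap at 333 FPKM, Ldb3 at 282, Xirp2 at 202, Smpx at 116, Ankrd2 at 79.98, Flnc at 77.5, Ankrd23 at 75.3, Csrp3 at 18.9, Xirp1 at 18.3 and Ankrd1 at 2.72. The ranges over libraries overlapped from Ankrd2 to Flnc to Ankrd23 and between Csrp3 and Xirp1, and the other neighbours in this order were separate. The order in Unloading was the same but for the places of Ankrd2, Flnc and Ankrd23, whose neighbouring ranges again overlapped. In Reloading the order became Flnc at 868 FPKM, Ankrd2 at 679, Nrap at 668, Ldb3 at 423, Xirp1 at 364, Csrp3 at 331, Xirp2 at 258, Ankrd1 at 97.6, Smpx at 96.6 and Ankrd23 at 40.7. There the ranges of Flnc and Ankrd2, of Ankrd2 and Nrap, of Ldb3 and Xirp1, of Xirp1 and Csrp3, and of Ankrd1 and Smpx overlapped. Csrp3 and Xirp1 thus passed Xirp2 and Smpx in mean level, and Ankrd1 moved from the lowest place to about the level of Smpx.

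**Figure D1:**
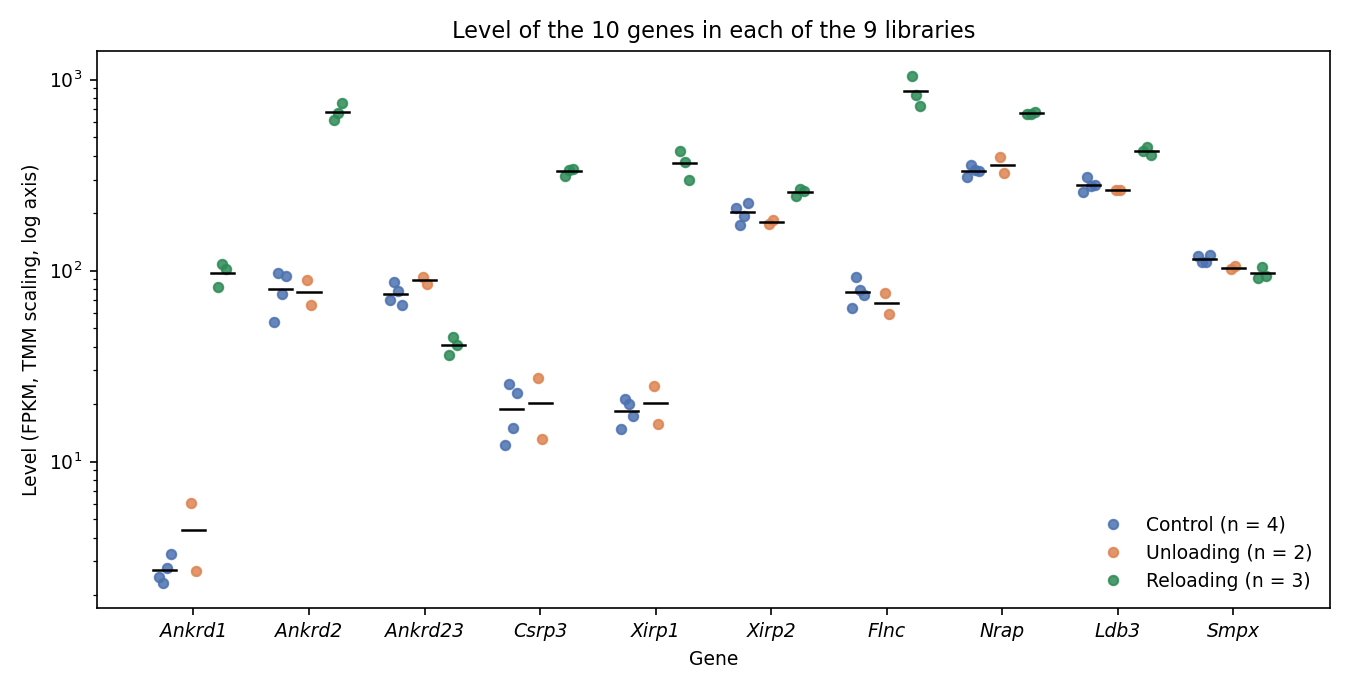
Level of each of the 10 genes in FPKM on a log axis, with a point for each library and a black bar at the group mean (4 Control, 2 Unloading and 3 Reloading libraries). Ankrd1, Ankrd2, Csrp3, Xirp1 and Flnc sit far above their Control and Unloading points in all 3 Reloading libraries, Ankrd23 sits below them, and Smpx lies close to them.

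What 1 day of load changed in the unloaded muscle is asked by setting Reloading against Unloading. Of the 10 genes, 8 were higher in Reloading, 1 was lower (Ankrd23) and 1 was not called (Smpx), at an adjusted p under 0.05 in edgeR's quasi-likelihood test. Among all tested genes 18.5% were called higher and 19.0% lower. With TMM 49.3% of the calls over all genes were higher, and with library totals only 82.8%. The 8 genes fell into a set of 5 with large differences (Ankrd1, Xirp1, Csrp3, Flnc and Ankrd2, 8.77- to 23.0-fold) and a set of 3 with small ones (Nrap, Ldb3 and Xirp2, 1.43- to 1.86-fold). The median log2 fold change of the 10 genes was 2.01, against 0.03 over all tested genes. The 10 genes were chosen with earlier results of these data known, so their counts and median against all genes are a description only.

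Ankrd1 (ENSMUSG00000024803, GRCm38 chromosome 19, 36111961 to 36120099, minus strand) encodes the cardiac ankyrin repeat protein, a titin-binding protein that also acts in the nucleus and is a known target of the mechanosensitive coactivator YAP. It had 2.50, 2.33, 2.77 and 3.27 FPKM in Control 1 to 4, 6.07 and 2.67 FPKM in Unloading 1 and 2, and 82.2, 108.7 and 101.8 FPKM in Reloading 1 to 3. All 3 Reloading libraries lay more than 10 times above every other library, and of the others Unloading 1 was the highest. The difference between Reloading and Unloading was 23.0-fold (log2 fold change 4.52 ± 0.24 SE, adjusted p 7.61e-09), which placed Ankrd1 at rank 47 among the 14851 tested genes ordered from the largest rise. The size of the fold rests on the unequal pair of Unloading libraries, since the log2 fold change was 5.19 without Unloading 1 and 4.00 without Unloading 2.

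Ankrd2 (ENSMUSG00000025172, chromosome 19, 42036000 to 42045110, plus strand) encodes the skeletal muscle member of the same family, known for its abundance in slow fibres and its response to stretch. It had 53.9, 96.8, 75.1 and 94.1 FPKM in Control 1 to 4, 89.3 and 65.9 FPKM in the Unloading libraries, and 614, 666 and 757 FPKM in the Reloading libraries. The Reloading libraries did not overlap with the others. Reloading exceeded Unloading 8.77-fold (log2 fold change 3.13 ± 0.21 SE, adjusted p 7.09e-08).

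Ankrd23 (ENSMUSG00000067653, chromosome 1, 36530188 to 36536883, minus strand), the remaining member of the titin-binding ankyrin repeat family, moved the opposite way. Its levels were 69.8, 86.8, 78.3 and 66.1 FPKM in Control, 93.1 and 85.3 FPKM in Unloading, and 36.3, 44.8 and 41.0 FPKM in Reloading. Every Reloading library lay below every Control and Unloading library. The fall from Unloading was 2.19-fold (log2 fold change -1.13 ± 0.11 SE, adjusted p 2.93e-06), at rank 235 among the tested genes ordered from the largest fall. Of its 2697 exon bases 2109 are shared with the annotated gene Gm42417 on the same strand, and if reads there were left uncounted, the level of Ankrd23 per length, its place in the order of levels and its share of the family are too low in every group.

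Csrp3 (ENSMUSG00000030470, chromosome 7, 48830398 to 48848033, minus strand) encodes muscle LIM protein, which binds alpha-actinin and telethonin at the Z-disc. In Control 1 to 4 it had 12.2, 25.6, 15.007 and 22.9 FPKM, in Unloading 1 and 2 it had 27.4 and 13.1 FPKM, and in Reloading 1 to 3 it had 314, 338 and 342 FPKM. The Reloading libraries lay close together, whereas the values in Control and in Unloading were spread widely within each group. Reloading exceeded Unloading 16.5-fold (log2 fold change 4.04 ± 0.31 SE, adjusted p 2.68e-07), and the log2 value was 4.65 without Unloading 1 and 3.59 without Unloading 2.

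Xirp1 and Xirp2 encode the Xin actin-binding repeat proteins, which bundle actin and bind filamin C and nebulin family proteins. Xirp1 (ENSMUSG00000079243, chromosome 9, 120013755 to 120023598, minus strand) had 14.7, 21.3, 19.9 and 17.3 FPKM in Control, 24.8 and 15.7 FPKM in Unloading, and 423, 370 and 299 FPKM in Reloading. All 3 Reloading libraries were far above the rest, and 18.0-fold above Unloading (log2 fold change 4.17 ± 0.21 SE, adjusted p 4.96e-09). Xirp2 (ENSMUSG00000027022, chromosome 2, 67173834 to 67526615, plus strand) had 214, 174, 194 and 226 FPKM in Control, 176 and 184 FPKM in Unloading, and 245, 268 and 261 FPKM in Reloading. Its Reloading libraries were again the highest, but by much less, 1.43-fold above Unloading (log2 fold change 0.52 ± 0.10 SE, adjusted p 0.000869). Xirp1 made up 8.44% ± 2.05 of the summed FPKM of both genes in Control (SD, n = 4), 10.1% ± 3.16 in Unloading (SD, n = 2) and 58.3% ± 4.98 in Reloading (SD, n = 3), a share that was looked at after the values of both genes were known and is given without a test.

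Flnc (ENSMUSG00000068699, chromosome 6, 29433256 to 29461883, plus strand) encodes filamin C, the muscle filamin that cross-links actin at the Z-disc and the cell membrane and is cleared under load with the help of the co-chaperone Bag3. The levels were 64.1, 92.3, 79.3 and 74.2 FPKM in Control, 76.5 and 59.2 FPKM in Unloading, and 1044.6, 828 and 731 FPKM in Reloading. Flnc was the most abundant of the 10 genes by mean level in Reloading and had the largest spread there, with Reloading 1 the highest library. Against Unloading the rise was 12.8-fold (log2 fold change 3.68 ± 0.18 SE, adjusted p 3.32e-09).

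Nrap and Ldb3 were abundant in every group and rose modestly. Nrap (ENSMUSG00000049134, chromosome 19, 56320035 to 56390037, minus strand) encodes a nebulin-related anchoring protein of the myotendinous junction and of myofibril assembly. It had 311, 356, 336 and 331 FPKM in Control, 392 and 326 FPKM in Unloading, and 663, 664 and 676 FPKM in Reloading (log2 fold change against Unloading 0.89 ± 0.09 SE, adjusted p 3.19e-06). Ldb3 (ENSMUSG00000021798, chromosome 14, 34526603 to 34588682, minus strand) encodes the PDZ and LIM domain protein that ties alpha-actinin to signalling proteins. Its levels were 259, 309, 278 and 282 FPKM in Control, 263.3 and 263.5 FPKM in Unloading, and 421, 443 and 405 FPKM in Reloading (log2 fold change against Unloading 0.68 ± 0.08 SE, adjusted p 1.96e-05). For both genes the Reloading libraries lay above all others.

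Smpx (ENSMUSG00000041476, chromosome X, 157698910 to 157752591, plus strand) encodes a small protein of the costamere, the link between Z-disc and membrane. It had 119.8, 110.5, 111.4 and 120.9 FPKM in Control, 101.9 and 105.4 FPKM in Unloading, and 91.96, 103.9 and 94.0 FPKM in Reloading. The Reloading and Unloading ranges overlapped, and the difference did not pass the threshold (log2 fold change -0.10 ± 0.08 SE, adjusted p 0.330). With library totals in place of TMM it was 0.15 with an adjusted p of 0.140, so its sign turned with the scaling.

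**Figure D2:**
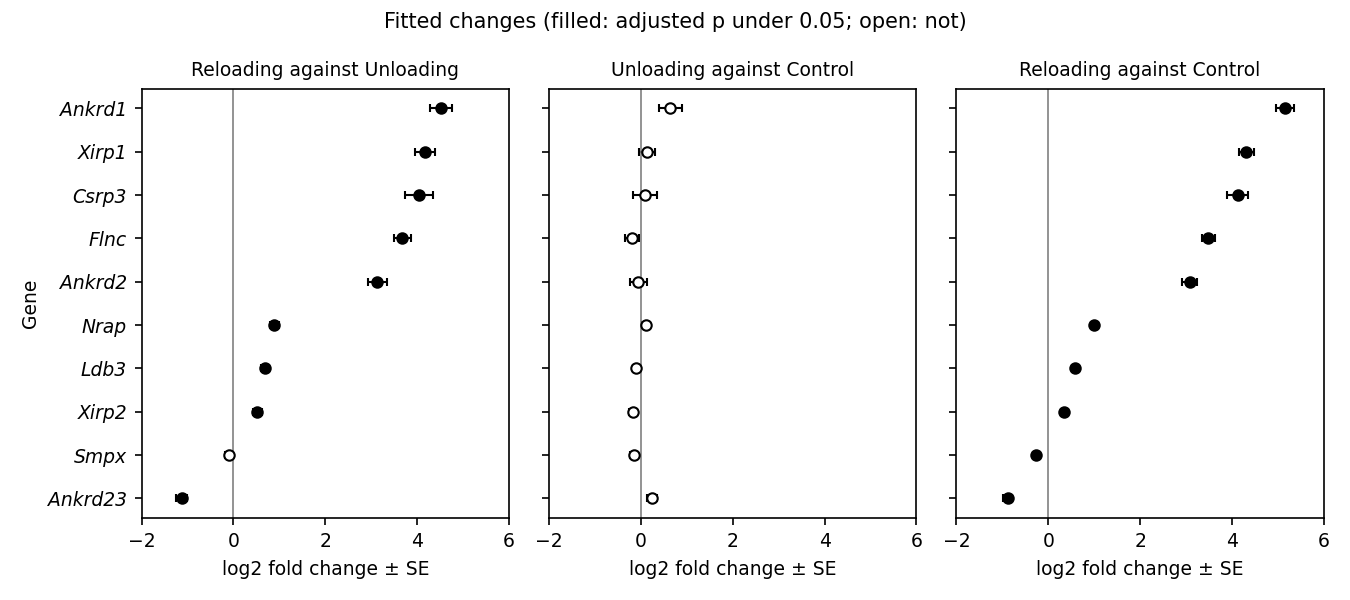
Fitted log2 fold changes of the 10 genes, with bars for the SE, in the 3 comparisons, where filled points have an adjusted p under 0.05. The 10 points of Unloading against Control are all open and lie between -0.19 and 0.64, while 9 of 10 points of Reloading against Unloading and 10 of 10 of Reloading against Control are filled.

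Whether 10 days without load changed these genes is asked by setting Unloading against Control. In edgeR's test 0 of the 10 genes were called, and DESeq2's Wald test on the same genes also called 0. With no filter on low counts edgeR called Ankrd1 (adjusted p 2.31e-06) and Ankrd23 (adjusted p 0.0179), and with a block by the replicate number of the descriptions it called Ankrd1 (adjusted p 0.0381). Unadjusted p-values were under 0.05 for 2 of them, Ankrd1 (0.0211) and Ankrd23 (0.0336). Over all tested genes 4.40% were called higher and 5.50% lower in Unloading. Ankrd1 had the largest difference (log2 fold change 0.64 ± 0.25 SE, adjusted p 0.117), and its Unloading values overlapped with Control. That value rested on Unloading 1, since it was -0.03 (adjusted p 0.973) without this library and 1.15 (adjusted p 0.00293) without Unloading 2, where the lone Unloading library is assumed to vary like the libraries of the other groups. Ankrd23 had 0.24 ± 0.10 (SE, adjusted p 0.154), and without the 2 libraries with keratin transcripts it was 0.32 with an adjusted p of 0.0382. The other 8 genes had log2 fold changes between -0.19 and 0.14, with adjusted p-values of at least 0.199. Smpx was not called (adjusted p 0.199), although both Unloading libraries lay below all 4 Control libraries. How many of all tested genes separate in this way was not counted, so no fall of Smpx is read from it. For the abundant genes Ldb3, Nrap, Smpx and Xirp2 the SE of the log2 fold change was at most 0.094, and for Csrp3 it was 0.26, so a modest difference in Csrp3 was not detectable with these libraries.

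Unloading 1 stood above Unloading 2 in all 5 genes with the large rise on reloading. The same order held for Nrap (392 against 326 FPKM) and for Ankrd23 (93.1 against 85.3), and Ldb3, Xirp2 and Smpx had the opposite order. The summed level of 9 slow-fibre markers was also higher in Unloading 1, at 1187 CPM, than in Unloading 2, at 733 CPM, and it lay between 860 and 1422 CPM in Control and between 627 and 716 CPM in Reloading. Among the Control libraries Control 4 had the highest and Control 3 the lowest sum of slow-fibre markers. Ankrd2 and Csrp3 were lowest in Control 1. The slow-fibre sums in Reloading lay below those of the other groups, but only just below that of Unloading 2. Of the 9 markers 2 were called lower in Unloading against Control, 3 in Reloading against Unloading and 7 in Reloading against Control. None was called higher. Over all tested genes 5.50%, 19.0% and 21.3% were called lower in these comparisons. Ankrd2 and Csrp3 were at their highest in Reloading. The part of slow-fibre content in the levels and the spread of these genes was not tested.

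Reloading was also set against Control, muscle that was never unloaded, in a comparison that shares the Reloading libraries with the comparison above. Of the 10 genes 8 were higher in Reloading and 2 lower, with 22.1% of all tested genes called higher and 21.3% lower, and the higher ones were 50.9% of all calls with TMM and 80.2% with library totals only. Ankrd1 was 35.8-fold higher (log2 fold change 5.16 ± 0.19 SE, adjusted p 7.55e-11), at rank 14 of the tested genes. The log2 fold changes of Xirp1, Csrp3, Flnc and Ankrd2 were 4.31, 4.13, 3.49 and 3.08, at ranks 23, 26, 39 and 61. Nrap, Ldb3 and Xirp2 were higher by 1.00, 0.59 and 0.35 on the log2 scale, with adjusted p-values of 6.62e-08, 7.06e-06 and 0.00270. Ankrd23 was 1.85-fold lower (log2 fold change -0.89 ± 0.10 SE, adjusted p 3.90e-06), so its level after 1 day of load was below that of muscle never unloaded. Smpx had -0.26 ± 0.07 (SE, adjusted p 0.00513), with no overlap between the groups, but with library totals only it had -0.02 with an adjusted p of 0.838.

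Because a share within a family does not depend on how libraries are scaled, the members of 2 families were also set against each other as shares of the family's summed level per length. In the ankyrin repeat family Ankrd23 took 48.1% ± 6.24 in Control (SD, n = 4), 52.4% ± 4.26 in Unloading (SD, n = 2) and 4.99% ± 0.451 in Reloading (SD, n = 3). Ankrd2 took 50.1% ± 6.28, 45.1% ± 3.21 and 83.1% ± 1.56, and Ankrd1 1.75% ± 0.349, 2.48% ± 1.05 and 11.9% ± 1.15 (SD, with the same n). The share of Ankrd23 thus lay far lower in Reloading than in either other group. The summed level of the family went from 171 ± 24.5 FPKM in Unloading to 817 ± 83.5 in Reloading (SD, n = 2 and 3). If reads in the exon bases of Ankrd23 shared with Gm42417 were left uncounted, this sum is too low in every group. It is then lowered most outside Reloading, so its rise is too large, and the shares of Ankrd1 and Ankrd2 are too high. Csrp3 took 65.5% ± 9.02, 67.0% ± 10.9 and 94.5% ± 0.910 of the CSRP total (SD). In these 4 shares the Reloading libraries did not overlap with the other groups. The exact permutation test, two-sided, gave p = 0.2 for each against Unloading and p = 0.0571 for each against Control, the smallest values that these group sizes allow, and 0.273 and 0.171 after adjustment over 15 comparisons, of which 12 concern these shares, so the test cannot reach 0.05 here.

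**Figure D3:**
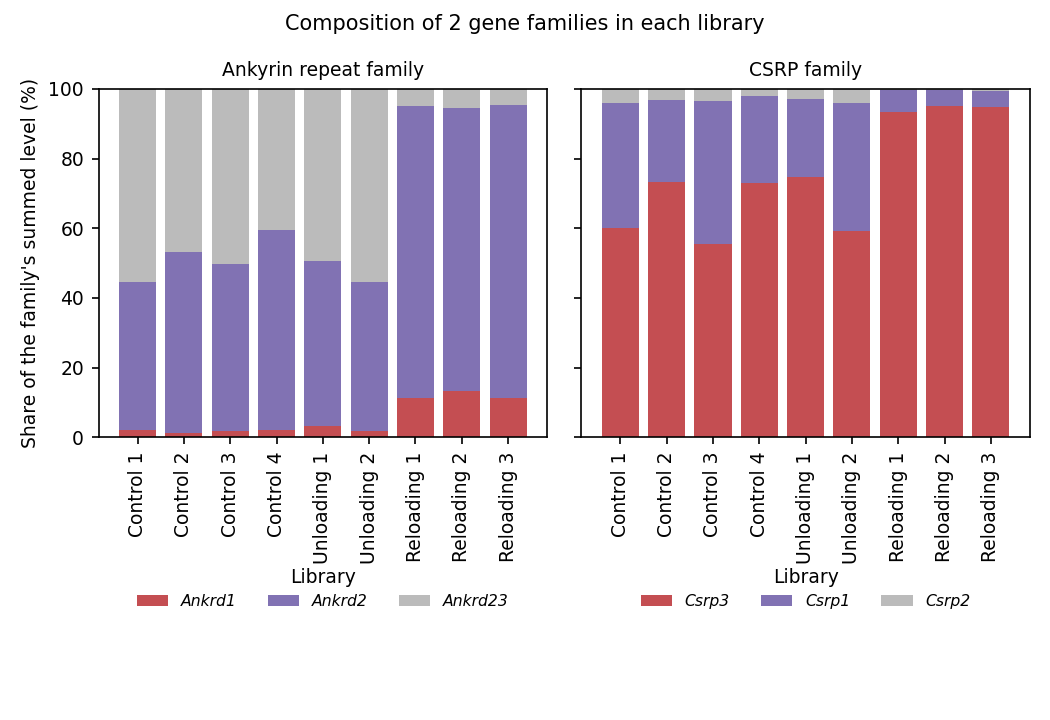
Stacked bars give, for each of the 9 libraries, the share in percent of each member in the summed level per length of its family. The Ankrd23 part is too small in every library if reads in the exon bases shared with Gm42417 were left uncounted. The Ankrd23 part shrinks from 40.4% to 55.4% of the ankyrin repeat family in the Control and Unloading libraries to 4.56% to 5.46% in the Reloading libraries, and Csrp3 fills more of its family.

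The windows before the transcription start are shown for the genes that rose most, because these genes moved together. RefSeq windows on GRCm38.p6 of 250 bases before the start were at hand for 9 of the 10 genes, all but Xirp1. They were searched on both strands for CATTCC (the letters bound by TEAD factors, the partners of YAP), TGANTCA (AP-1), GAANNTTC (part of a heat shock element), the CArG box (bound by SRF), the MEF2 site and CANNTG (bound by myogenic factors), and capitals mark matches to the first 5 of these. For Ankrd1 the whole window lies in exons of longer annotated transcripts, so stretches of 30 bases around the matches are given, at chr19:36120035-36120064 and chr19:36119948-36119977, minus strand. The Flnc window is chr6:29433006-29433255, plus strand, the Csrp3 window chr7:48848052-48848301, minus strand, and for Ankrd2 the bases before the first annotated exon are shown, chr19:42035777-42035999, plus strand.
Ankrd1 distal: cactgccaaaGGAATGaccctctcacattt
Ankrd1 proximal: cactaagtctGGAATGAAAATTCacctgcc
Flnc: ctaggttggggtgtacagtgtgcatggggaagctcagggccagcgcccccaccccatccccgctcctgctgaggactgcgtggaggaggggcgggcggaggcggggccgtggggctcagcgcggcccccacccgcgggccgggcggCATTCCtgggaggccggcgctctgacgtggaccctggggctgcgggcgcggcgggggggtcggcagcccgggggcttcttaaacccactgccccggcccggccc
Csrp3: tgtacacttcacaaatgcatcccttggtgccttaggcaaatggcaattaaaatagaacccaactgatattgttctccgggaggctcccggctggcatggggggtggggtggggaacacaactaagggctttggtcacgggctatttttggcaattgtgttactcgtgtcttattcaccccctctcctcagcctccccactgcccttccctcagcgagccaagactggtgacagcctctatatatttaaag
Ankrd2: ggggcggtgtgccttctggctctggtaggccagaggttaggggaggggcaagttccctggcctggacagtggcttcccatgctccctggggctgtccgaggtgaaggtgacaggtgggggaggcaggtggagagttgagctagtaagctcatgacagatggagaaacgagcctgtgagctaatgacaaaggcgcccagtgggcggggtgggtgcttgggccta

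CATTCC, read on the opposite strand as GGAATG, stood 210 and 123 bases before the start of Ankrd1, and it stood 104 bases before the start of Flnc on the same strand as the gene. The second match in Ankrd1 shares a base with a GAANNTTC match that starts 118 bases before the start. Of 32851 windows of the same length 12.6% hold CATTCC and 6.69% hold GAANNTTC. The windows of Csrp3 and Ankrd2, which rose 16.5- and 8.77-fold, held CANNTG matches but none of the other 5 motifs, as did that of Nrap, and those of Ankrd23 and Smpx held none of the 6. CANNTG occurs in 66.2% of all windows. Ldb3 held a CArG box 35 bases and a TGANTCA 95 bases before its start. Xirp2 held a MEF2 site at 74 and a TGANTCA at 107. The Xirp2 window, chr2:67445752-67446001, plus strand, precedes a start inside the annotated gene, not its first base at 67173834. The CArG box, TGANTCA and the MEF2 site occur in 1.47%, 6.75% and 2.92% of windows. No motif was common to the genes with the large rise. A match describes letters in these windows only.

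Around the 10 genes, the lists of titin partners, Z-disc scaffold proteins, family relatives and YAP and TEAD genes were counted in the same fits. In Reloading against Unloading 18.5% of all tested genes were called higher and 19.0% lower. Of 25 genes of titin and its direct partners 9 were higher and 8 lower in Reloading than in Unloading, with a median log2 fold change of 0.07 against 0.03 over all tested genes. Of 27 tested Z-disc scaffold and anchoring genes 10 were higher and 8 lower, with a median of 0.02. Of these counts, Actn2, Actn3, Tcap and Mypn stand in both lists. With library totals only, the counts were 14 higher and 5 lower for both lists, and without Unloading 2 the lower scaffold genes were 5.

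Ttn, the titin gene itself, had 95.4 ± 10.8 FPKM in Control (SD, n = 4), 109 ± 21.3 in Unloading (SD, n = 2) and 86.4 ± 7.68 in Reloading (SD, n = 3). Reloading lay below Unloading by little (log2 fold change -0.34 ± 0.12 SE, adjusted p 0.0415), and with library totals only it was -0.10 with an adjusted p of 0.556. Tcap, which encodes telethonin, the cap that joins titin ends at the Z-disc, went from 3192 ± 318 FPKM in Unloading to 2197 ± 47.2 in Reloading, which is -0.54 ± 0.09 SE on the log2 scale (adjusted p 0.000195). Actn2, the alpha-actinin of all fibre types, rose from 178 ± 2.56 to 463 ± 40.7 FPKM, which is 1.38 ± 0.10 SE on the log2 scale (adjusted p 1.75e-07). Actn3, the alpha-actinin of fast fibres, had a log2 fold change of -0.73 (adjusted p 1.62e-05), and the levels were 5846 ± 575 FPKM in Unloading and 3524 ± 317 in Reloading.

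Of the other titin partners the small heat shock protein genes Hspb1 and Cryab rose most, by 3.86 and 3.56 on the log2 scale (adjusted p 6.64e-09 and 3.61e-10). Their proteins bind and protect titin's spring and other Z-disc proteins. Cryab went from 215 ± 0.223 FPKM in Unloading (SD, n = 2) to 2531 ± 458 in Reloading (SD, n = 3). Also called with a log2 fold change of at least 1 were Fhl1 (1.36) and Fhl2 (1.05), LIM proteins that bind titin, and Myom3 (1.29), a myomesin of the M-band. Fhl2 was low, at 0.645 FPKM in Unloading and 1.30 in Reloading. In the scaffold list the rises of at least 1 were those of Klhl40 (2.23) and Klhl41 (1.10), adaptors that stabilise thin-filament proteins, of Bag3 (1.83), the co-chaperone for damaged filamin, and of Fhod3 (1.13), a formin of the sarcomere, besides Actn2. Adjusted p-values of these 4 were at most 6.13e-07.

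**Figure D4:**
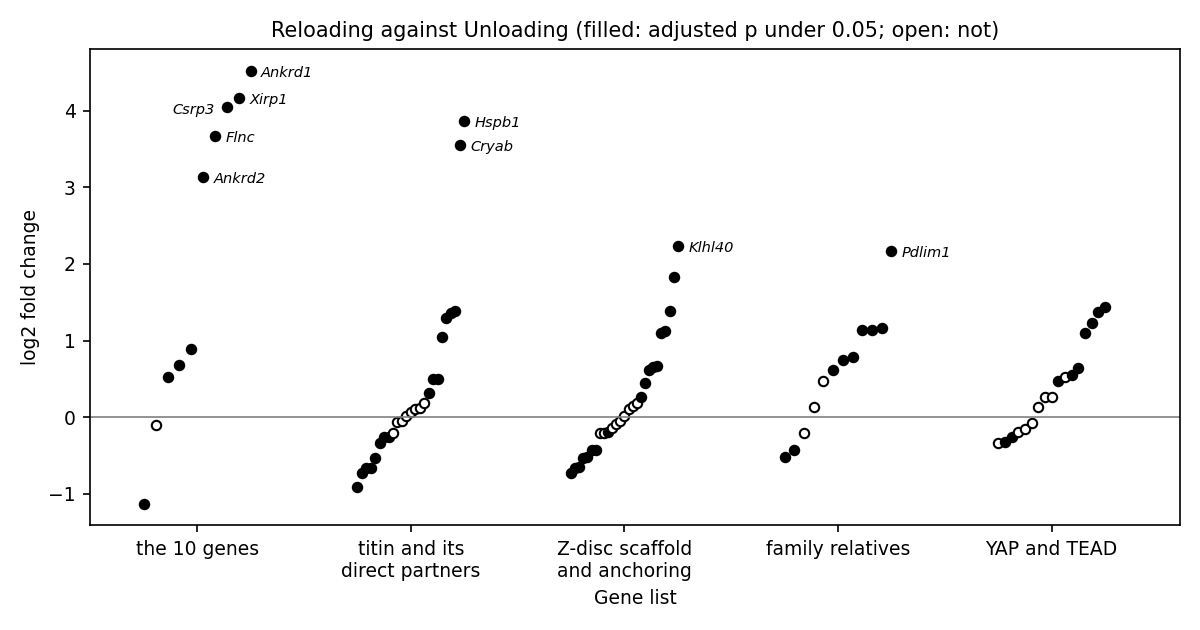
Log2 fold changes in Reloading against Unloading for the tested genes of each list, in rising order within a list, where filled points have an adjusted p under 0.05 and genes at 2 or above are named. The 10 genes reach 4.52, and only Hspb1, Cryab, Klhl40 and Pdlim1 of the other lists lie above 2.

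Of 12 tested family relatives 7 were higher and 2 lower in Reloading than in Unloading, with a median log2 fold change of 0.68, and Neb, Pdlim3, Pdlim5 and Pdlim7 count among the scaffold genes too. Of the relatives 1 was lower without Reloading 1, without Unloading 1 or without Unloading 2. The largest was Pdlim1, a PDZ and LIM protein like Ldb3, which rose by 2.17 on the log2 scale (adjusted p 8.16e-10), from 3.19 ± 0.0586 FPKM in Unloading (SD, n = 2) to 14.3 ± 0.554 in Reloading (SD, n = 3). Flna (1.16) and Csrp1 (1.14) rose too. These genes are also expressed by smooth muscle and connective tissue cells, and markers of other cell types were counted in the same comparison. Called higher were 6 of 7 smooth muscle, 4 of 5 endothelial, 6 of 6 macrophage, 4 of 6 tendon and myotendinous junction and 3 of 6 satellite cell and regenerating fibre markers, with no lower call in these lists. Over all tested genes 18.5% were called higher and 19.0% lower. The 5 fibroblast and progenitor markers split, with Col1a1 (1.68) and Col3a1 (1.38) higher, Dcn (-0.49) and Pdgfra (-0.62) lower and 1 not called, and their sums were 500.4 to 513 CPM in Unloading and 569 to 735 CPM in Reloading. The summed smooth muscle markers were 124 to 127 CPM in Unloading and 199.8 to 226 CPM in Reloading, and the summed tendon and junction markers 78.0 to 79.6 and 144 to 197 CPM. Of the latter, Thbs4 went from a mean of 39.3 CPM in Unloading to 122 in Reloading. Col22a1 went from 26.5 to 23.1 CPM and Mkx from 0.801 to 0.761. The macrophage markers summed to 58.5 to 59.0 CPM in Unloading and 128 to 144 CPM in Reloading, and among them Cd68 rose 15.3-fold (log2 fold change 3.93, adjusted p 1.12e-09). The satellite cell and regenerating fibre markers summed to 36.1 to 40.5 CPM in Unloading and 58.7 to 68.1 CPM in Reloading. Among them the mean of Myod1 went from 10.6 to 26.4 CPM, that of Pax7 from 3.45 to 3.07 and that of Myf5 from 1.77 to 1.38. Of the skeletal fibre markers 8 of 9 were lower. The part of these cells in the rise of the 10 genes and their relatives was not tested, and in whole muscle fewer cells of a type cannot be told apart from less RNA per cell.

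Of 17 genes of the YAP and TEAD list, in which Ankrd1 itself was not counted, 7 were higher and 2 lower in Reloading than in Unloading, with a median of 0.27. Over all tested genes 18.5% were called higher and 19.0% lower. Ccn1 and Ccn2, secreted matricellular proteins that like Ankrd1 are known YAP targets, rose by 1.37 and 1.23 on the log2 scale (adjusted p 1.02e-05 and 1.02e-06). Vgll2, a muscle cofactor of TEAD proteins, rose by 1.44 and Tead2 by 1.10, the latter from 0.231 to 0.500 FPKM. Yap1 and Wwtr1, which encodes the YAP relative TAZ, rose by 0.64 and 0.47. Among the 8 not called, Tead1, the most abundant TEAD gene at 16.5 FPKM in Unloading, had -0.15 (adjusted p 0.176). Vgll3 (-0.34), Axl (-0.19) and Amotl1 (-0.08) also had negative values, and Tead4 (0.53), Amotl2 (0.27), Tead3 (0.26) and Lats2 (0.14) positive ones. With library totals only 11 of the 17 were higher and 0 lower, and the 2 lower calls, Lats1 and Vgll4, were lost. Without Reloading 3, or without either Unloading library, the count of lower genes was also 0, and it was 1 without Reloading 1 or without Reloading 2.

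In Unloading against Control, with 4.40% of all tested genes called higher and 5.50% lower, the calls were 3 higher and 1 lower of the titin partners, 3 and 4 of the scaffold genes, and 4 and 2 of the YAP and TEAD genes, and 2 of the 12 family relatives were lower. The largest were Actn3 (0.61, adjusted p 0.000595) and Smyd2 (0.60), a methyltransferase tied to titin's spring, Myoz3 (-0.45), a Z-disc calcineurin binder, Pdlim1 (-0.65) and Pdlim7 (-0.31), and Ccn1 (0.95, adjusted p 0.00237) and Vgll2 (-0.72). Ccn1 went from 7.91 ± 1.22 FPKM in Control (SD, n = 4) to 15.5 ± 2.55 in Unloading (SD, n = 2) and 39.9 ± 7.19 in Reloading (SD, n = 3). Ankrd1 had 0.64 ± 0.25 (SE, adjusted p 0.117) in Unloading against Control, and whether Ccn1 and Ankrd1 differ there was not tested. Without Unloading 1 the counts fell to 1 higher and 0 lower for the titin partners and the scaffold genes, to 0 and 0 for the YAP and TEAD genes, and to 1 lower relative. Without Control 3 the lower ones were 3 titin partners, 2 scaffold genes, 1 relative and 1 YAP and TEAD gene. Without Unloading 2 the YAP and TEAD genes were 2 higher and 1 lower, 2 scaffold genes were lower, and 1 relative was higher and 1 lower. Without Control 2 the counts were 5 higher scaffold genes and 1 higher and 1 lower relative. Leaving out Control 1, Control 4 or Reloading 2 left 1 lower YAP and TEAD gene, leaving out Reloading 2 or Reloading 3 left 1 lower relative, and leaving out Control 4 gave 1 higher relative.

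Against Control, 22.1% of all tested genes were called higher in Reloading and 21.3% lower. Of the lists, Reloading had 11 higher and 9 lower titin partners, 11 and 8 scaffold genes, 8 and 2 relatives, and 10 and 2 YAP and TEAD genes. With library totals only these list counts were 12 and 3, 15 and 6, 9 and 1, and 14 and 1. Without Reloading 1 the lower ones were 5 titin partners, 1 relative and 1 YAP and TEAD gene, and without Control 1, Control 4 or Reloading 3 the last was also 1. Among the genes called with a log2 fold change of at least 1 there were Hspb1 (3.70), Cryab (3.29) and Fhl1 (1.55), Klhl40 (2.67), Bag3 (1.48), Klhl41 (1.17) and Actn2 (1.15), Pdlim1 (1.52), Flna (1.39) and Csrp1 (1.05), and Ccn1 (2.32), Ccn2 (1.36) and Tead2 (1.08). Tcap was lower than in Control, at -0.56 (adjusted p 2.35e-05), and Ttn had -0.14 (adjusted p 0.288). Tead1 was lower too, at -0.44 (adjusted p 0.000196).

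Among genes outside the 10, those with the profile most like that of Ankrd1 over the 9 libraries, by root mean square distance of centred log2 CPM, were Mustn1 at 0.335, Cd68 at 0.529 and Atf3 at 0.641. Mustn1, which encodes a small musculoskeletal protein, had log2 fold changes of 4.16 in Reloading against Unloading and 0.57 in Unloading against Control. Of the 10 genes the nearest to Ankrd1 were Xirp1 at 0.475 and Csrp3 at 0.519, both nearer than Cd68. The macrophage marker Cd68 was also near to Xirp1, at 0.218, and to Csrp3, at 0.244. Its log2 fold change in Reloading against Unloading was 3.93, while the median of the macrophage markers was 0.95. Flnc was nearest to Ankrd2 among the 10, at 0.319. For Ankrd23 the nearest of the 10 was Smpx, at 0.419, whereas Smpx itself was nearer to Xirp2, at 0.300, and to Ldb3, at 0.402. Outside the 10 genes Flnc was nearest to Hspb1 at 0.132, Cryab at 0.163 and Dnaja4 at 0.211, all chaperone genes, and Ankrd2 to Enah, an actin regulator, at 0.211. The genes outside the 10 most like Ankrd23 were Ift27 at 0.168, Art5 at 0.169 and Dhdh at 0.171, with log2 fold changes of -0.85, -0.93 and -1.03 in Reloading against Unloading. These distances are a description over libraries that share the same groups.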

How the data were processed

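Polyadenylated RNA of gastrocnemius muscle was sequenced in 4 Control, 2 Unloading and 3 Reloading libraries. The authors aligned reads to GRCm38.p6 with STAR 2.7.3a and deposited raw counts of read pairs per gene from featureCounts 2.0.3, unstranded, against Ensembl release 102, with the summed exon length of each gene. The labels describe paired-end reads and the study's methods single reads. The authors' comparison tables, which hold shrunken fold changes and p-values of DESeq2, were used only for gene symbols.

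The statistics were run in edgeR 4.0.16 under R 4.3.3. A filter on low counts was applied (filterByExpr, minimum count 10, minimum total 15), library sizes were adjusted by TMM (trimmed mean of M-values), and all 9 libraries entered 1 quasi-likelihood fit with group as the only term. P-values were two-sided and adjusted by Benjamini and Hochberg over all 14851 tested genes, with a threshold of 0.05. SEs were derived from the F statistic. Log2 CPM used a prior count of 2. Library totals, with the resolution they give, stand in the report. The common coefficient of biological variation was 0.0927. Family shares were compared by exact permutation tests. The procedure was tested on simulated data. Alternatives were another scaling, no filter, DESeq2 1.42.0, robust moderation, fits on the 2 groups compared only, replicate blocks and leaving out libraries.

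The 10 genes and all lists were chosen with earlier results of these data known. Named besides the 10 genes are Ttn, Tcap and Actn2, list genes called with an absolute log2 fold change of at least 1 or else the 2 largest of a list, and the 3 nearest profiles of Ankrd1 and Ankrd23. Yap1, Wwtr1, Lats1, Vgll4, Tead1, the YAP and TEAD genes not called, and Actn3 in Reloading were added after their values were seen. So were the nearest profiles of Flnc, Ankrd2, Xirp1 and Csrp3, the marker genes and the distances among the 10 genes. Of 151 listed symbols 149 were matched, and the other 2 are older names of Ccn1 and Ccn2. Exons of Nrap overlap those of the antisense gene Habp2 (506 counts in all) by 268 bases, where unstranded counting cannot assign reads. Exons of Ankrd23 overlap those of Gm42417 (7 counts in all) by 2109 bases on the same strand, where strand could not assign reads either. Sequences are from RefSeq, build GRCm38.p6. A gene of the lists, and the shares that need it, are not reported here.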

Additional observations from a re-analysis of the deposited data

How the results depend on the processing

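The 9 calls of the 10 genes in Reloading against Unloading and 9 of the 10 in Reloading against Control kept their direction and their side of the threshold under all 18 alternatives, with adjusted p-values of at most 0.0206. The exception was Smpx. Scaling by library totals moved the median over all tested genes to 0.27 in Reloading against Unloading and to 0.25 against Control on the log2 scale, and the genes called became 5250 higher and 1090 lower, and 6028 higher and 1484 lower, so that 82.8% and 80.2% of calls were higher, against 49.3% and 50.9% with TMM. There Smpx had 0.15 against Unloading, and 1 of the 10 genes was called lower against Control. In Unloading against Control, no filter on low counts gave 1072 genes called higher and 2 of the 10 genes (Ankrd1, 0.67, adjusted p 2.31e-06, and Ankrd23, 0.28, adjusted p 0.0179). Leaving out the keratin libraries gave 1 of the 10 (Ankrd23). Leaving out each library in turn gave 65 to 687 genes called higher and 56 to 831 lower in Unloading against Control, lowest without Unloading 1 (65 and 56) and 391 higher without Control 3, and 0 to 1 of the 10 genes. The counts were 1876 to 2762 and 2045 to 2892 in Reloading against Unloading, and 2661 to 3302 and 2606 to 3247 against Control. In Unloading against Control the uncalled values changed sign for Ankrd2 without the keratin libraries (0.050), and over the libraries left out they ranged from -0.027 to 1.15 for Ankrd1, -0.28 to 0.15 for Ankrd2, -0.53 to 0.53 for Csrp3, -0.22 to 0.43 for Xirp1 and -0.028 to 0.23 for Nrap, each lowest without Unloading 1 and highest without Unloading 2. The differences in family share there ranged from -0.0169 to 1.47 percentage points for Ankrd1 and from -6.21 to 9.20 for Csrp3 over the libraries left out. The cause of these changes was not tested.

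Replicate numbers of the titles did not pair the libraries, with correlations of deviations between -0.201 and 0.0752 over 7 pairs and 1 of 8 libraries closest to its own number. Numbers in the descriptions gave 0.0172 to 0.361 over 6 pairs, 3 of them over 0.1, with 7 of 9 libraries closest to their own number. This is a hint from the data and not the design. The value of 0.361 was that of Control 2 and Reloading 1, the 2 libraries with keratin transcripts. Control 3 with Reloading 2 had 0.1425, and Control 4 with Reloading 3 had 0.155. The part of skin transcripts in these values was not tested. A replicate block by title gave 475 higher and 567 lower genes in Unloading against Control, 0 of the 10 genes called, and 0.10 for Ankrd2. A block by description number gave 682 and 797 genes, 1 of the 10 genes (Ankrd1, 0.64, adjusted p 0.0381) and 0.080 for Ankrd2.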
